A study of Mus musculus with 13 samples.

Results

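Mouse fibroblasts that had been treated with small molecules for 8 days and sorted for a neural stem cell reporter were compared by RNA-seq with primary neural stem cells sorted for the same reporter. The series' title describes a conversion of fibroblasts into neural stem cells, and this comparison sets the sorted product beside the intended cell type. The comparison uses 2 of the 13 samples of the series, the library labelled D8 GFP-positive and the library labelled NSC GFP-positive, which were taken by their labels; the comparison itself was picked with earlier results of these data known. Of the 30332 genes in the table, 12939 reached 5 CPM on either side and were compared, where CPM is the estimated count of a gene scaled to the total of its library. There was 1 library on each side, so every difference is between 2 libraries, no p-value or standard deviation can be given, and intervals are 95% intervals for counting error only.

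The chemically induced cells came from mouse embryonic fibroblasts that were transgenic for Nestin::GFP, so that cells with an active Nestin gene fluoresce green. The fibroblasts were taken from embryos at E13.5, grown to passage 3 and exposed for 8 days to VCR, a mixture of valproic acid, CHIR99021 and RepSox. Valproic acid inhibits histone deacetylases, CHIR99021 blocks the kinase GSK3 and thereby activates Wnt signalling, and RepSox blocks signalling by the TGF-beta type I receptor. GFP-positive cells were then isolated by flow sorting. The neural stem cells (NSC) were primary mouse cells with the same Nestin::GFP transgene, also at passage 3 and also sorted as GFP-positive. The labels do not give the age, brain region or medium of the NSC. Cell type, tissue of origin, culture conditions and treatment therefore cannot be told apart between the 2 libraries. Both libraries were selected on Nestin reporter activity, so the level of Nes is no finding. The other 7 RNA-seq libraries are quoted beside single genes: untreated fibroblasts (D0), VCR for 1 or 2 days (D1, D2), the GFP-negative cells of days 4 and 8, the GFP-positive cells of day 4, and GFP-positive cells from fibroblasts given growth factors in place of chemicals (GF).

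Nestin is an intermediate filament protein of neural stem cells, but it is also made by neural crest cells, by Schwann cell precursors and by some pericytes. The neural crest leaves the dorsal neural tube and gives rise to peripheral glia, sensory and autonomic neurons, melanocytes and part of the connective tissue of the head. FOXD3, SOX10, PAX3 and TFAP2A are among the transcription factors that specify it, and CDH19, ERBB3 and DHH mark its glial descendants. Neural stem cells of the ventral forebrain instead use SOX1, PAX6, GSX and DLX factors, and their GABAergic neurons make doublecortin (DCX) and glutamate decarboxylase.

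The promoters of 3 of the 4 marker genes of this comparison, taken from RefSeq on GRCm38.p6, are shown because of the pair of libraries Foxd3 was detected in the chemically induced one alone, and Dlx1 and Dcx stood far higher in NSC. Each window is the first that the reference promoter table lists for the gene and runs from 250 bases before a transcript start to 50 after it, 5′ to 3′ on the gene's strand, and capitals mark CpG dinucleotides. The Foxd3 window is set on the outer annotated start of its gene, while the Dlx1 and Dcx windows are set on starts further inside the annotated genes. The windows lie at chr4:99656049-99656348 on the plus strand for Foxd3, chr2:71529195-71529494 on the plus strand for Dlx1 and chrX:143933170-143933469 on the minus strand for Dcx. Cdh19, the fourth marker, is on chromosome 1 between 110888002 and 110977601.
Foxd3: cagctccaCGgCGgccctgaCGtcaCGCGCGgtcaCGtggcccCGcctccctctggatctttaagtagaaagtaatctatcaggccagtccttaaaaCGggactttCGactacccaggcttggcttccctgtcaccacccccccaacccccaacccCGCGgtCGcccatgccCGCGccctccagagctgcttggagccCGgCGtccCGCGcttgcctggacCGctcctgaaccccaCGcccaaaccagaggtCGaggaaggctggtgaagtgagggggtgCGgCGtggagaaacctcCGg
Dlx1: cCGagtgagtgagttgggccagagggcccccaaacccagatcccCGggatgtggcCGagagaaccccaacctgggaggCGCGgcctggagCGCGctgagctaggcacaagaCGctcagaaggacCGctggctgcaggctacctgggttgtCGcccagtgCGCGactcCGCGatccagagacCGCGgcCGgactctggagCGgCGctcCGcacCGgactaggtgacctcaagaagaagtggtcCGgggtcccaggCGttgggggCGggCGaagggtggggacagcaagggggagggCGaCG
Dcx: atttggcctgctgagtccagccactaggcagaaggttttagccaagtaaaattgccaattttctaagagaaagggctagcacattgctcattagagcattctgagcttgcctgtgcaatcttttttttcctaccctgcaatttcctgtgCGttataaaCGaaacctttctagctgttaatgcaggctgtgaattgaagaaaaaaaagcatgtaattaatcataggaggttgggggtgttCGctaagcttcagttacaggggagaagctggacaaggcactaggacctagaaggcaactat
The Foxd3 window held 25 CpG and the Dlx1 window 27, as many as or more than 83.2% and 86.0% of the 27025 promoter windows in the reference table. The Dcx window held 3 CpG, and 31.9% of windows held as many or fewer. Of 6 short motifs searched on both strands, the Dcx window held 1 TAATTA, the core of many homeodomain sites, which 5.31% of all windows hold, 1 TATAAA (14.2% of windows) and 1 CCAAT (37.9%). The Foxd3 and Dlx1 windows held none of these, and none of the 3 windows held ACAAAG (18.7% of windows), CAGCTG (16.1%) or TGANTCA (7.93%). A match is a description of the letters and not a binding site.

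Most of the genes compared lay beyond 2-fold. On a log2(CPM + 1) scale, 2297 genes (17.8% of those compared) were 2-fold or more higher in the chemically induced library and 4382 (33.9%) were lower, 51.6% in all, and 6260 lay within 2-fold. Differences of 8-fold or more were found for 550 genes higher and 932 lower, and of 32-fold or more for 130 higher and 189 lower. The median gene stood at -0.36, and the split of the calls depends on how the libraries are scaled. With median ratio scaling 2352 genes were higher and 3968 lower, with the median gene at -0.28. With trimmed mean of M values (TMM) scaling 3437 were higher and 2652 lower, with the median gene at 0.22, so that 56.5% of the called genes were higher in place of 34.4%. Differences of lists are therefore read against the median gene and not against 0. Counts of listed genes are likewise read beside the shares of all genes compared, 17.8% higher and 33.9% lower with library totals. Of the compared genes, 9928 reached 5 CPM in both libraries, 825 in the chemically induced library alone and 2186 in NSC alone. A gene of the latter 2 groups was compared through 1 library alone, so its direction was fixed by the limit, in every list below as well. By comparison, 142 of 11106 genes (1.28%) were higher and 166 (1.49%) lower in the GFP-positive library of day 8 than in that of day 4, 2.77% in all. These are separate libraries of the same treatment but not replicates. The median absolute difference was 0.21 there against 1.04 between the chemically induced library and NSC. Across 17041 genes that reached 1 CPM in some library, Pearson's r of log2(CPM + 1) was 0.756 between the chemically induced library and NSC and 0.99 between the GFP-positive libraries of days 8 and 4. The day 4 library, set against the same NSC library, had 2447 of 12971 genes (18.9%) higher and 4116 (31.7%) lower. The coefficients are across genes, which are not independent replicates. The libraries held 28870255 estimated counts (chemically induced) and 20104940 (NSC), and a floor of 3 counts corresponds to 0.104 and 0.149 CPM.

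**Figure D1:**
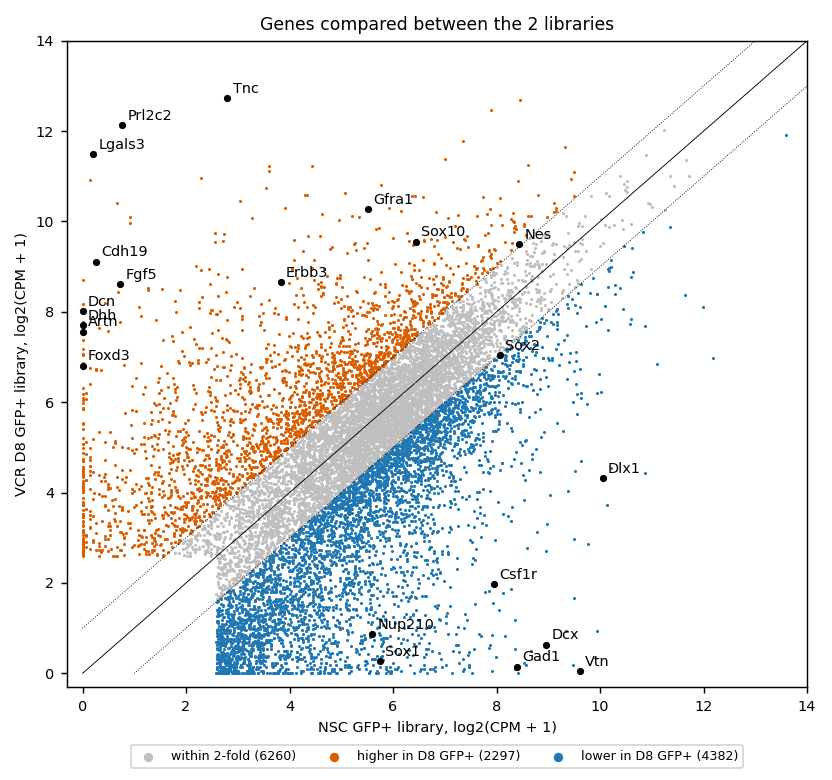
Level of each of the 12939 compared genes in the NSC library (x axis) and in the VCR D8 GFP+ library (y axis), both as log2(CPM + 1), with the 2-fold lines dotted and selected genes named. Orange marks the 2297 genes that were higher in the chemically induced library and blue the 4382 that were lower. Cdh19, Foxd3 and Dhh lie along the left edge, and Dcx and Gad1 along the bottom.

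The 4 markers of this comparison were chosen with earlier results of these data known, so their differences describe the libraries and are no test. Cdh19, a cadherin of the Schwann cell lineage, was at 553 CPM in the chemically induced library and at 0.200 CPM (4 counts) in NSC, a ratio of 2768 (interval 1085 to 10197). Foxd3 was at 111 CPM against 0 counts, at least 745-fold higher against the floor. Dlx1, a homeodomain factor of ventral forebrain progenitors, was at 18.9 against 1058 CPM, 55.8-fold lower (51.3 to 60.9), counts that may include an antisense transcript of the locus since the use of strand is not stated. Dcx, a microtubule protein of migrating neurons, was at 0.553 against 497 CPM, 899-fold lower (552 to 1570). In the remaining libraries Cdh19 was at 407 CPM in the day 4 GFP-positive cells and at 9.19 CPM or less in the other 6, and Foxd3 was at 109 CPM and at 3.28 CPM or less respectively. Dlx1 was at 9.16 CPM in the day 4 GFP-positive cells, at 6.68 CPM in GF and below 1 CPM in the 5 others. Dcx was below 1 CPM in all 8 libraries other than NSC. Cdh19 and Foxd3 were thus high in the 2 GFP-positive libraries of VCR-treated cells, and Dlx1 and Dcx in NSC.

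Transcription factors of the neural crest were mostly higher in the chemically induced library. Of 15 listed genes, 12 reached 5 CPM in either library, of which 7 were higher and 3 lower, with a median difference of 1.93 against -0.36 for all genes compared. The mean over its members was 0.91, within 2-fold, and the median over all 15 was 1.29. Foxd3, Pax3, Snai2 and Tfap2b were under 5 CPM in NSC, and Sox8 and Msx1 in the chemically induced library. Their direction was fixed by the limit. Sox10, which acts throughout the crest and its glial line, was at 748 against 86.0 CPM (8.69-fold, 8.28 to 9.14). Pax3 was at 55.3 against 4.83 CPM, Snai2 at 63.7 against 4.60, Ets1 at 198 against 37.6, Tfap2a at 25.9 against 5.43 and Tfap2b at 19.5 against 4.92. The chemically induced library was the higher in each of these, but not all had the same course from the fibroblasts. Snai2, a repressor that acts in the transition of epithelial to migratory cells, was at 123 CPM at D0 and at 254 CPM in the GFP-negative cells of day 8, above its level in the sorted GFP-positive cells, whereas Sox10 was at 2.94 CPM and 14.3 CPM in those libraries. The 3 lower genes were Sox8 (1.04 against 152 CPM, 147-fold, 103 to 218), Sox5 (15.2 against 75.0) and Msx1 (1.00 against 7.06). Sox8 belongs with Sox10 and Sox9 (61.1 against 113 CPM, within 2-fold) to the SoxE group. Pax7, another early crest factor, had 0 counts in both libraries.

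Genes of the Schwann cell lineage lay on both sides. Of 17 listed genes 13 were compared, 7 were higher and 4 lower, and the median was 1.98, or 1.49 over all 17. Cdh19, Dhh, Ngfr and Gfra3 were under 5 CPM in NSC, and Pou3f1 in the chemically induced library. Their direction was fixed by the limit. The higher genes were those known from precursor and immature Schwann cells. Dhh, the hedgehog ligand that Schwann cells send to the nerve sheath, was at 208 CPM against 0 counts, at least 1396-fold higher. Erbb3, the neuregulin receptor, was at 401 against 13.2 CPM (30.4-fold, 26.9 to 34.5), and Ngfr, the p75 neurotrophin receptor, at 201 against 3.21 CPM (62.7-fold, 49.4 to 82.2). Gfra3, which encodes the receptor of artemin, was at 83.5 against 0.0995 CPM (2 counts, ratio 839, 232 to 6933). The adhesion molecule L1cam was at 358 against 75.2 CPM. Some genes of myelinating Schwann cells were lower. Mbp, which encodes a protein of compact myelin, was at 8.07 against 32.6 CPM, Egr2 at 10.7 against 44.8 and Pou3f1 at 0.520 against 24.0, the latter 2 being transcription factors that drive myelination. Ncam1 was at 105 against 780 CPM and S100b, at 16.5 against 20.5, lay within 2-fold.

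Most genes of other crest derivatives did not reach 5 CPM in either library. Of 9 melanocyte genes, 3 were compared, 1 was higher and 0 lower, with a median of 1.00, and with TMM scaling 2 were higher. The higher gene was Kit, the receptor of stem cell factor (26.4 against 7.21 CPM). Ednrb, an endothelin receptor that is also made in crest cells and glia, was at 344 against 172 CPM and 79.3 CPM at D0, and it made up most of the list's summed level of 375 against 193 CPM. Mitf was at 2.70 against 5.34 CPM, within 2-fold, and the pigment enzymes Dct and Tyrp1 had 0 counts in the chemically induced library. Of 13 genes of autonomic and sensory neurons, 2 were compared, 1 was higher and 0 lower. The higher gene was Gata2 (14.8 against 1.34 CPM), a GATA factor of sympathetic neurons and of blood cells, while the autonomic determinant Hand2 was at 1.28 CPM against 0 counts, under the 5 CPM limit.

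Genes of central neural stem cells were mostly lower. Of 20 listed, 19 were compared, 3 were higher and 15 lower, and the median was -3.95. Over all 20 the median was -3.52, and with TMM scaling 13 were lower. Sox1, a SoxB1 factor of the neural plate, had 6 counts (0.208 CPM) against 52.6 CPM, 253-fold lower (116 to 692). Pax6 was at 1.56 against 56.3 CPM (36.0-fold, 26.8 to 49.8), Hes5, a target of Notch, at 0.589 against 89.3 CPM (152-fold, 94.5 to 261), and Nr2e1, which maintains adult stem cells, had 2 counts against 24.7 CPM. Fabp7, a lipid-binding protein of radial glia, was at 5.92 against 106 CPM and the glutamate transporter Slc1a3 at 2.42 against 276. Sox2 stood apart from its relatives. It was at 130.3 CPM against 267 CPM, 2.05-fold lower (1.97 to 2.14), a difference of -1.03 that shrinks to -0.97 with median ratio and -0.52 with TMM scaling, while Sox3 had 5 counts against 5.77 CPM. The 3 higher genes were Nes, the reporter's own gene (721 against 344 CPM), Tnc (6814 against 5.97 CPM) and Gfap (5.26 against 1.34 CPM). Sox1, Pax6, Hes5, Nr2e1, Slc1a3 and Sox3 were under 5 CPM in the chemically induced library, and Gfap was in NSC. Their direction was fixed by the limit. Tnc encodes the matrix protein tenascin C, which is made by stem cell niches but also by fibroblasts, and it stood at 831 CPM at D0 and at 4856 CPM in the GFP-negative cells of day 8.

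**Figure D2:**
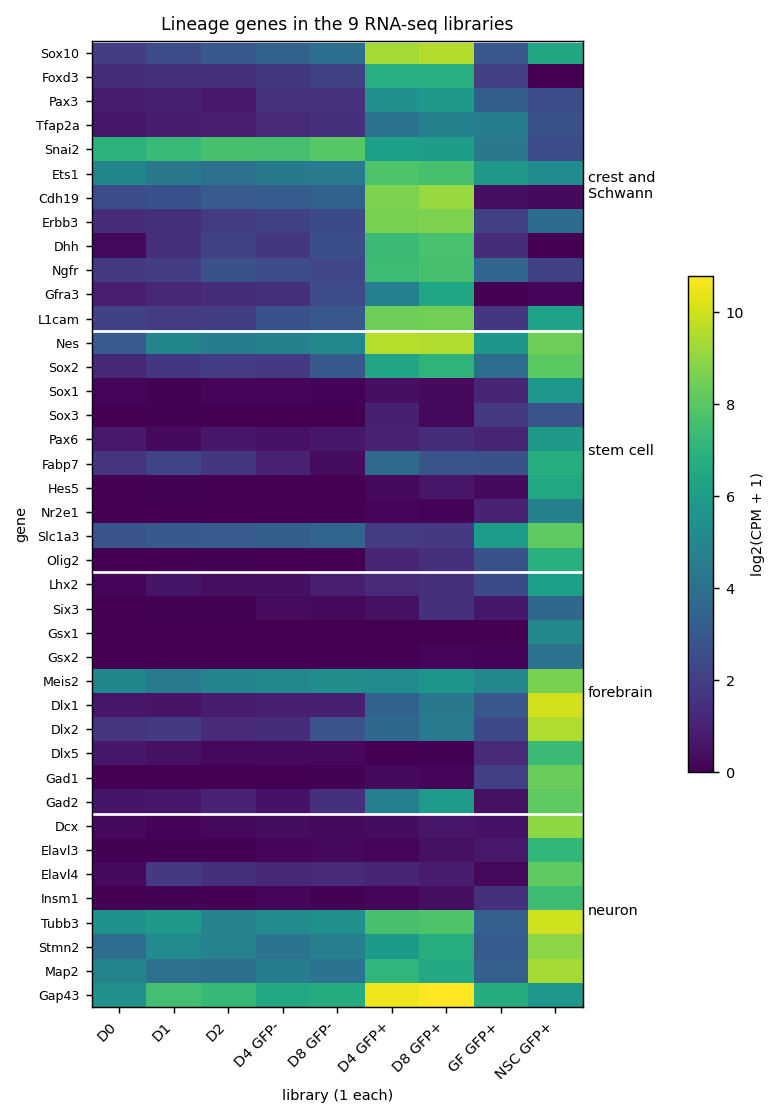
Levels of lineage genes (rows) as log2(CPM + 1) in the 9 RNA-seq libraries (columns, 1 library each), from dark (0) to yellow (highest). Most crest and Schwann cell genes are bright in the D4 and D8 GFP+ columns, most stem cell, forebrain and neuronal genes in the NSC column, and Nes and Sox2 in both.

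Transcription factors that mark regions of the neural axis differed as well. Of 22 forebrain transcription factors, 13 were compared, 11 were lower and 2 higher, with a median of -4.00 that was -1.77 over all 22. Lhx2, a factor of the early telencephalon and eye, was at 1.80 against 67.3 CPM, Gsx1 at 0 counts against 34.4 CPM and Meis2 at 50.3 against 393. Lhx2 and Gsx1 were under 5 CPM in the chemically induced library, so their direction was fixed by the limit. The 2 higher genes were Nr2f1 (57.2 against 21.0 CPM) and Nr2f2 (47.0 against 16.3 CPM), nuclear receptors that are also widely made in mesenchyme. Otx2, a factor of the forebrain and midbrain, had 0 counts in both libraries.

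Some more caudal factors were higher in the chemically induced library. Of 12 midbrain and hindbrain factors 4 were compared, namely En1 (35.7 against 0.149 CPM), Irx5 (15.7 against 2.49), Irx3 (7.97 against 0.448) and Irx2 (5.54 CPM against 0 counts). Each was under 5 CPM in NSC and was compared through its level in the chemically induced library alone, so their common direction was fixed by the limit; over all 12 members the median was 0.36. These 4 genes were at 10.9 to 24.1 CPM in the untreated fibroblasts. Of 39 Hox genes, which give cells a position along the trunk, 10 were compared, 8 were higher and 0 lower, with a median of 2.81 that was 0.88 over all 39 and 1.46 with a limit of 1 CPM. Hoxb7 was at 31.8 against 1.54 CPM (20.6-fold, 14.4 to 30.5), Hoxb9 at 19.2 against 0.329, Hoxd8 at 18.2 against 0 counts (at least 122-fold), and Hoxa7 and Hoxc4 were both at 11.8 CPM against 0.687 and 1.99. Each of these 5 was under 5 CPM in NSC and was compared through the chemically induced library alone, so its direction was fixed by the limit. At D0 Hoxb7 was at 16.3 CPM, Hoxb9 at 34.1, Hoxd8 at 18.1, Hoxa7 at 24.1 and Hoxc4 at 3.94 CPM, so these 5 paralogs were also detected in the starting fibroblasts. Hoxa9 (9.67 against 4.97 CPM) and Hoxc9 (3.79 against 6.08 CPM) lay within 2-fold.

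**Figure D3:**
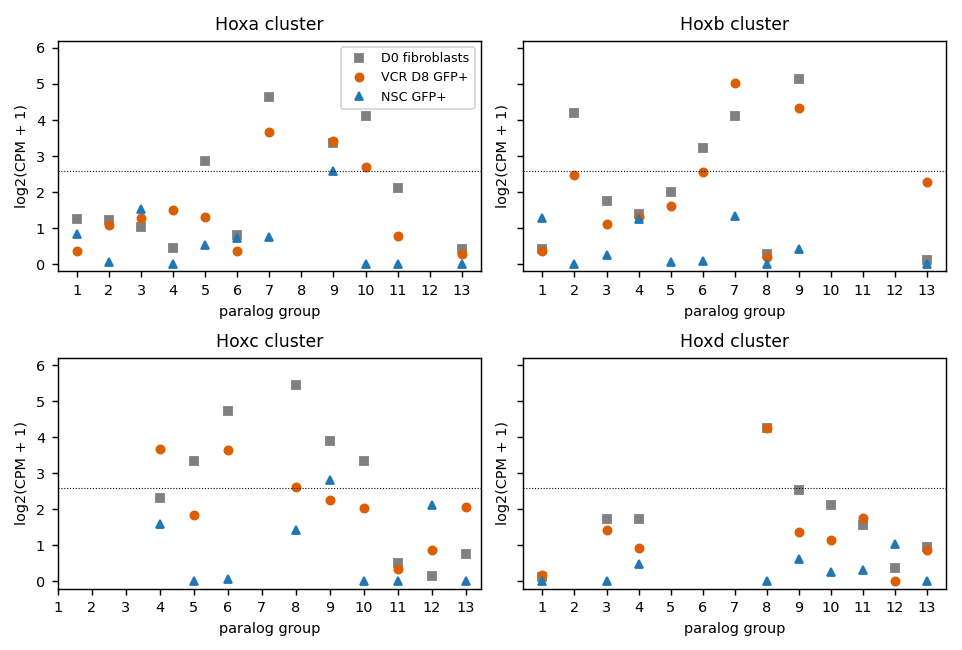
Level of each Hox gene as log2(CPM + 1) by cluster (panels) and paralog group (x axis) in untreated fibroblasts (grey squares), the VCR D8 GFP+ library (orange circles) and NSC (blue triangles); the dotted line is 5 CPM. Hoxa9 and Hoxc9 are near or above the line in NSC, and most orange circles above the line have a grey square above it too.

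The GABAergic programme of the ventral forebrain was the list with the lowest median, -5.26, and all 12 members compared were lower. Apart from Dlx1, Dlx2 and Gad2, each was under 5 CPM in the chemically induced library and was compared through NSC alone. The direction of those genes was therefore fixed by the limit. Over all 13 members in the table the median was -5.04. Dlx2 was at 21.3 against 734 CPM (34.5-fold, 31.8 to 37.4), Dlx5 had 1 count against 163 CPM and Sp9 was at 0.417 against 404 CPM. Gad1, which encodes the 67 kDa glutamate decarboxylase, had 3 counts against 335 CPM (ratio 3197, 1102 to 15627). Its partner Gad2 was at 59.4 against 287 CPM, 4.83-fold lower (4.58 to 5.10), and at 24.6 CPM in the day 4 GFP-positive cells against 0.55 CPM at D0. Gad2 was the member with the smallest difference in the list, and Gad1 among those with the largest.

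Genes of young neurons showed a similar division. Of 21 listed, 12 were compared, 10 were lower and 2 higher, with a median of -3.96 that was -1.01 over all 21. Elavl3 and Elavl4, RNA-binding proteins of neurons, were at 0.404 against 142 CPM and 0.762 against 287 CPM, and Insm1 was at 0.316 against 174. These genes and Dcx were under 5 CPM in the chemically induced library, so their direction was fixed by the limit. Structural genes that other cells also use were closer, with Tubb3 at 227 against 1038 CPM (4.58-fold lower), Stmn2 at 103.5 against 484 CPM and Map2 at 89.7 against 655 CPM. Gap43, which encodes a growth cone protein that Schwann cells make as well, was at 1779 against 53.6 CPM, 33.2-fold higher (31.2 to 35.3), and Nefm was at 6.30 against 1.27. Nefm was under 5 CPM in NSC, so its direction was fixed by the limit. Of 17 synaptic vesicle and release genes 16 were compared, 13 were lower and 1 higher, with a median of -2.37. With TMM scaling 10 were lower and the median was -1.85. Vamp2 (117 against 160 CPM), which serves vesicle fusion, lay within 2-fold, whereas Snap25 was at 2.2 against 85.1 CPM and Cplx1 at 0 counts against 99.7 CPM. Snap25 and Cplx1 were under 5 CPM in the chemically induced library, so their direction was fixed by the limit.

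The NSC library held transcripts of more than 1 cell type. Besides Dcx and Gad1 it had Gpr17, a receptor of committed oligodendrocyte precursors, at 252 CPM, the microglial receptor Csf1r at 245 CPM and the pericyte gene Rgs5 at 163 CPM, against 0.277, 2.91 and 0.249 CPM in the chemically induced library. In bulk RNA fewer cells of a type and less RNA per cell cannot be told apart, and the part of these cells in the differences was not tested. Of 15 macrophage and microglia markers 11 were lower and 1, Cd68, higher (45 against 14.2 CPM), and the whole list summed to 174 CPM in the chemically induced library, 834 CPM in NSC and 78.2 to 292 CPM in the other 7. Cx3cr1 was at 78.2 CPM in NSC and C1qb at 109 CPM, against 0.43 and 2.94 CPM, and Aif1 had 0 counts in the chemically induced library and 8.16 CPM in NSC. Of 8 pericyte and smooth muscle markers 6 were lower and 2 higher, and the list summed to 585 against 668 CPM. The 2 higher genes were Mcam (250.2 against 10.2 CPM), an adhesion molecule also known from crest-derived cells, and Pdgfrb (323 against 135 CPM), which fibroblasts share, while Kcnj8 (1.07 against 103 CPM) and Abcc9 (0.326 against 82.6 CPM), the potassium channel pair of pericytes, were lower. Vtn, the gene with the largest negative difference of the 12939 compared and one made by brain pericytes, had 1 count against 780 CPM.

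Glial genes of the central nervous system were lower in large part. Of 17 oligodendrocyte lineage genes 13 were compared, 8 were lower and 3 higher, with a median of -4.14 that was -1.89 over all 17. Olig1 was at 21.5 against 395 CPM and Olig2 at 1.73 against 114 CPM (65.7-fold, 49.6 to 88.7), while the 3 higher genes were Sox10, Cnp (271 against 104 CPM) and Nkx6-2 (11.3 against 4.25 CPM). Sox10 and Cnp are also made by Schwann cells. Of 15 astrocyte genes 12 were compared, 8 were lower and 2 higher, with a median of -2.18. Slc1a2, a glutamate transporter of astrocytes, was at 1.5 against 166 and Apoe at 217 against 974. Gja1, which encodes connexin 43, was at 269 against 46.5 CPM and, with Gfap, made up the higher pair. Of 9 ependymal cilia genes 2 were compared, and both were lower. Both were under 5 CPM in the chemically induced library, so their direction was fixed by the limit.

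Fibroblast genes were higher than in NSC and in most cases lower than in the starting cells. Of 23 listed genes 22 were compared, 17 were higher and 2 lower, with a median of 3.67. Col1a1, the main chain of fibrillar collagen, was at 169 against 5.87 CPM (28.8-fold, 24.0 to 34.9) and at 5658 CPM at D0. Fn1 was at 1156 against 23.7 CPM with 2233 at D0, Postn at 1099 against 0.895 with 2393 at D0, and Dcn at 258 CPM against 0 counts (at least 1728-fold) with 613 at D0. Lum was at 134 against 0 counts and at 97.5 CPM at D0. The summed level of the 23 genes was 5911 CPM in the chemically induced library, 728 in NSC and 42986 at D0, and between 6030 and 32231 CPM in the other 6 libraries. The 2 lower genes were Aspn (0.208 against 16.7 CPM) and Fap (1.39 against 5.53 CPM).

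Mesenchymal regulators and matrix genes followed the fibroblast list in part. Of 20 mesenchymal transcription factors 15 were compared, 9 were higher and 3 lower, with a median of 1.36. Runx2, a factor of bone and mesenchyme, was at 300 against 2.44 CPM (123-fold, 92.9 to 166) and had been at 18.2 CPM at D0. Twist2 and Prrx2 were at 15.2 and 12.3 CPM against 0 counts. The repressor Zeb2, which the crest and the brain both use, was at 408 against 366 CPM. Of 12 basement membrane genes 7 were higher and 2 lower (median 2.73), led by Nid2 (44.9 CPM against 0 counts) and Nid1 (1088 against 39.7 CPM), the nidogens that link laminin and collagen IV. Of 16 matrix proteases and inhibitors compared 13 were higher and 3 lower (median 3.11), with Mmp13 at 209 CPM against 0 counts and Adamts1 at 2397 against 11.1 CPM (216-fold, 189 to 248). Contractile and TGF-beta target genes had 7 higher and 2 lower of 14 compared (median 0.86). Thbs1 was at 1357 against 0.597 CPM, but the smooth muscle genes Acta2 (40.6 against 32.7 CPM, with 4957 at D0) and Tagln (10.2 against 9.10 CPM, with 826 at D0) lay within 2-fold of NSC.

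**Figure D4:**
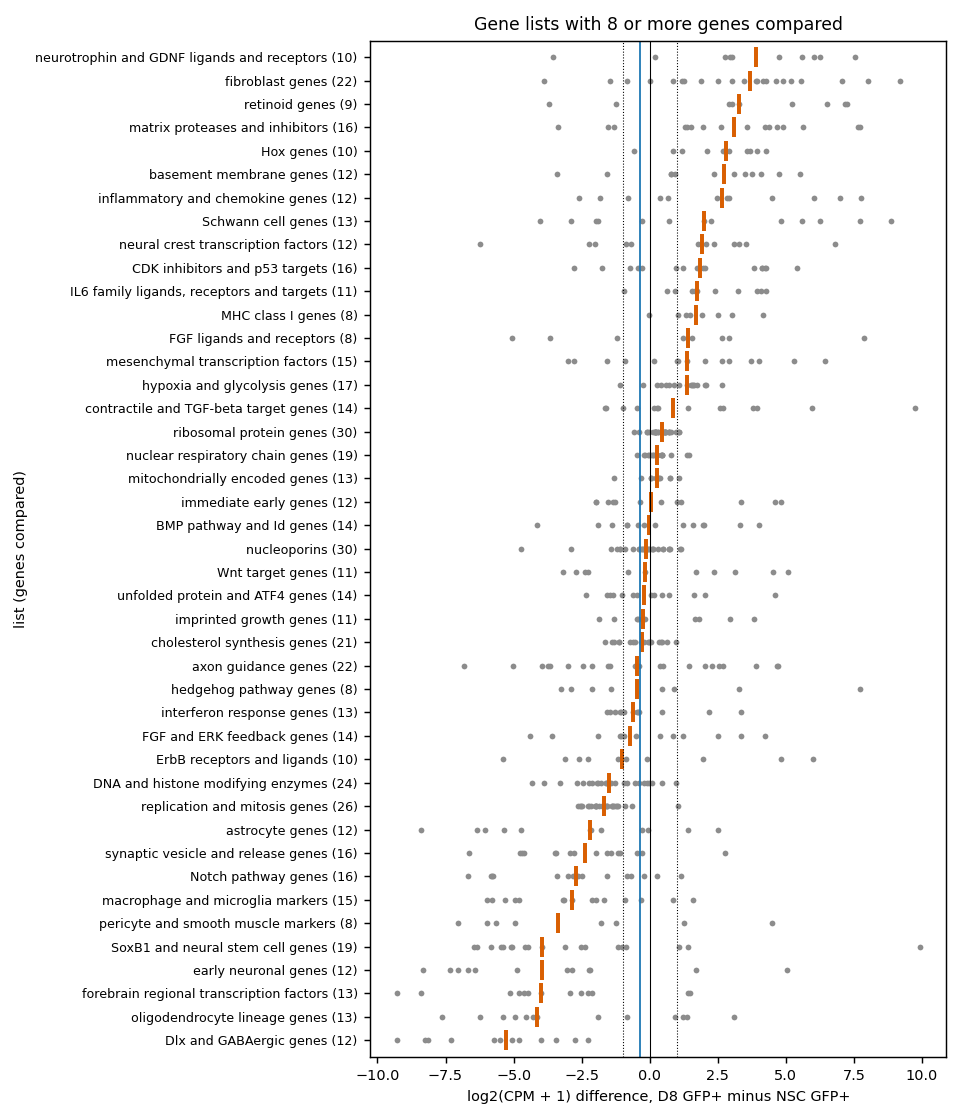
Difference of each compared member (grey points) between the VCR D8 GFP+ and NSC libraries on the log2(CPM + 1) scale, for the gene lists with 8 or more members compared; orange bars are list medians, the blue line is the median of all 12939 genes and dotted lines are 2-fold. Lists of crest, Schwann cell, fibroblast and matrix genes lie to the right and lists of neuronal, forebrain and oligodendrocyte genes to the left, most of them with some members on the other side.

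Growth factor systems differed member by member. Among the neurotrophin and GDNF genes 8 were higher and 1 lower of 10 compared, and the median of 3.9 was the highest of the lists with 8 or more genes compared. Over all 15 in the table the median was 2.76. Artn, Gdnf, Bdnf, Ngfr and Gfra3 were under 5 CPM in NSC, so their direction was fixed by the limit. The ligands Artn and Gdnf, which support sensory and enteric neurons, were at 187 and 65.2 CPM against 0 counts (at least 1255-fold and 437-fold), and Bdnf was at 26.5 against 3.05 CPM. Of the receptors, the GDNF co-receptor Gfra1 was at 1236 against 44.7 CPM (27.6-fold, 25.9 to 29.6) and Gfra2 at 149 against 18.7. The signalling receptor Ret that these co-receptors use was at 0.104 CPM (3 counts) against 0.199 CPM (4 counts). Ntrk2, the BDNF receptor, was the 1 lower gene, at 13.6 against 168 CPM.

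ErbB receptors differed in both directions. Erbb3 stood at 401 against 13.2 CPM and Erbb2, its usual partner, at 66.0 CPM against 1 count, a ratio of 1327 (238 to 52453). Egfr was at 16.5 against 148 CPM (9.01-fold lower, 8.18 to 9.95) and Erbb4 at 0.312 against 54.1 CPM (173-fold lower, 91.0 to 380.3). Erbb2 was between 11.9 and 80.3 CPM in the other 7 libraries, so NSC stood apart for this gene. Of the 10 ErbB genes compared 3 were higher and 5 lower, with a median of -1.02. With TMM scaling the median of these 10 was -0.54, and it was 0.02 over the genes that reached 5 CPM on that scale. Among the ligands Btc was at 24.5 against 5.50 CPM, Nrg1 at 2.94 against 7.96 CPM, and Tgfa at 53.4 against 57.1 CPM.

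FGF genes were divided by member as well, with 5 higher and 3 lower of 8 compared (median 1.39, which was -0.17 over all 16 in the table). Fgf5, one of the growth factors followed in the study, was at 391 against 0.657 CPM, 595-fold higher (353 to 1135), and Fgf10 and Fgf7 were at 18.8 against 1.65 CPM and 6.68 against 1.60 CPM. Fgfr1 was at 57.4 against 24.0 CPM, while Fgfr2 (34.5 against 81.3 CPM) and Fgfr3 (0.727 against 56.1 CPM), receptors of neural progenitors and astrocytes, were lower. Of 14 feedback genes of the FGF and ERK pathway 4 were higher and 5 lower. Phlda1 was at 332 against 16.5 CPM and Fosl1 at 39.7 against 2.98 CPM, and the 3 ETS factors Etv1 (8.97 against 209 CPM), Etv5 (7.10 against 95.8 CPM) and Etv4 (1.70 against 9.05 CPM) were lower.

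The IL6 family was mostly higher, with 8 higher and 0 lower of 11 compared and a median of 1.74. Lif was at 48.3 against 1.90 CPM (25.4-fold, 18.5 to 36.3), and Osmr and Il6st, which form receptors for these cytokines, were at 58.1 against 10.3 CPM and 171 against 50.6 CPM. Socs3, a target of STAT3 signalling, was at 371 against 23.4 CPM (15.9-fold, 14.5 to 17.4), and Stat3 itself at 363 against 114. Il6 had 14 counts against 4, a ratio of 2.44 (0.765 to 10.2), which was not detectable as a difference at this depth. Of 16 Notch genes compared 11 were lower and 1 higher (median -2.70). Mfng, which encodes a glycosyltransferase that modifies Notch, was at 0.105 against 110.2 CPM, Dll1 and Dll3 at 0.104 against 60.0 CPM and 0.575 against 84.2 CPM, while the receptor Notch1 was at 187 against 154 CPM and Hes1 at 39.2 against 17.3.

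**Figure D5:**
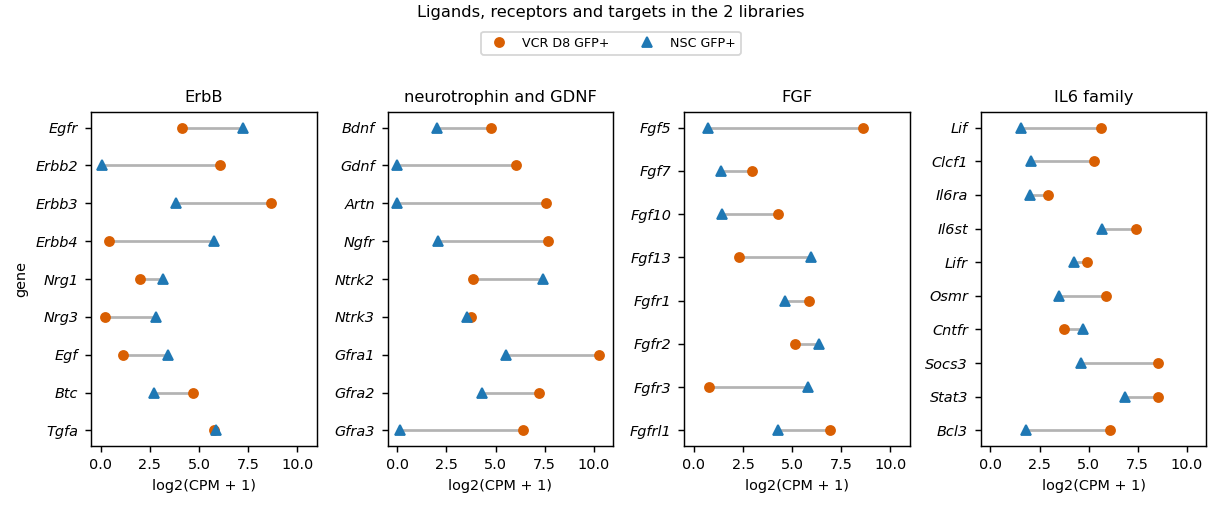
Levels of selected ErbB, neurotrophin and GDNF, FGF and IL6 family genes as log2(CPM + 1) in the VCR D8 GFP+ library (orange circles) and in NSC (blue triangles), joined by a grey line for each gene. Erbb2 and Erbb3 lie to the right of NSC and Egfr and Erbb4 to the left, and Artn, Gdnf and Fgf5 are near 0 in NSC.

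Other developmental pathways held genes of both directions. Of 8 hedgehog genes compared 2 were higher, Dhh and Gli3 (31.8 against 2.34 CPM), and 4 lower, among them the target Ptch1 (23.3 against 64.4 CPM) and Cdon (0.831 against 16.4 CPM). Of 11 Wnt targets 5 were higher and 4 lower. Nkd2 was at 563 against 15.9 CPM and Ccnd1 at 498 against 20.5, while Nkd1 was at 7.56 against 55.2 and Rnf43 at 0.312 against 11 CPM, which places both signs within 1 pathway. Of 14 BMP and Id genes 6 were higher and 3 lower, with Id3 at 109 against 10.0 CPM and Id4 at 5.37 against 110 CPM. The medians of these 3 lists, -0.49, -0.16 and -0.02, had the opposite sign with TMM scaling (0.01, 0.27 and 0.45 over the same genes). The median gene moved from -0.36 to 0.22 as well, and each of the 3 lists stayed on the same side of it. Over the genes that reached 5 CPM on the TMM scale the medians were 0.01, 1.17 and 0.28, so the Wnt targets then lay beyond 2-fold, as they did with quantile normalization (1.59) and with a limit of 20 CPM (2.38). Of 9 retinoid genes compared 7 were higher and 2 lower (median 3.26, which was 3.03 over all 11). Aldh1a2, which makes retinoic acid, was at 494 against 4.48 CPM (110-fold, 89.8 to 137), and the binding proteins Crabp2 and Crabp1 were at 359 against 1.39 CPM and 144 CPM against 0 counts. Aldh1a2, Crabp2 and Crabp1 were under 5 CPM in NSC, so their direction was fixed by the limit.

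Axon guidance genes were divided, with 8 higher and 10 lower of 22 and a median of -0.48 (0.03 with TMM scaling). Epha5 was at 566 against 21.1 CPM and Sema3b at 122 against 3.68, while Slit1 had 3 counts against 122 CPM and Epha4 was at 6.70 against 249. Of 11 imprinted growth genes compared 4 were higher and 2 lower (median -0.25, 0.26 with TMM scaling), with Grb10 at 447 against 30.6 CPM and Igf2 at 53.5 against 14.7.

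Genes of DNA replication and mitosis were lower in the chemically induced library. Of 26 listed, 23 were lower and 1, Ccne1 (62.6 against 30.3 CPM), higher, with a median of -1.69; with TMM scaling 16 were lower and the median was -1.17. Mcm7, a subunit of the replicative helicase, was at 77.0 against 455 CPM (5.91-fold lower, 5.64 to 6.19), Top2a at 133 against 603 and Mki67 at 62.9 against 247. Inhibitors of cell cycle kinases and p53 targets were mostly higher, with 10 higher and 2 lower of 16 compared (median 1.84). Cdkn1a, which encodes p21, was at 720.3 against 37.1 CPM (19.4-fold, 18.0 to 20.9) and at 1398 CPM at D0. Cdkn2b was at 81.0 against 0.945 CPM and Gadd45a at 493 against 24.5, but Cdkn1b, which encodes p27, was at 9.80 against 73.5 CPM and Cdkn2c at 10.8 against 39.0.

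Enzymes that modify DNA and histones, the class to which the targets of valproic acid belong, were lower or within 2-fold. Of 24 listed, 14 were lower and 0 higher, with a median of -1.51; with TMM scaling 12 were lower and 1 higher. Tet1 and Tet3, which oxidise methylated cytosine, were at 2.88 against 76.4 CPM (26.5-fold lower, 21.3 to 33.6) and at 21.0 against 212 CPM. Uhrf1 was at 46.9 against 263 CPM and Ezh2, the methyltransferase of Polycomb, at 57.1 against 202. The deacetylases Hdac1 (273 against 140 CPM) and Hdac3 (155 against 147 CPM) lay within 2-fold, while Hdac9 was at 1.63 against 38.2 CPM and Hdac7 at 10.0 against 50.3 CPM.

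Most nucleoporin genes lay within 2-fold, with Nup210 as the exception of largest size. Nup210, the pore membrane protein named in the title of the series, had 24 counts (0.831 CPM) against 47.3 CPM, 56.9-fold lower (38.0 to 89.3), and was at 1.41 CPM in the day 4 GFP-positive cells and at 0.677 CPM or less in the other 6 libraries. Of the 30 nucleoporin genes listed 22 lay within 2-fold, 6 were lower and 2 higher, with a median of -0.12; with TMM scaling 2 were lower and 6 higher, with a median of 0.38. The related Nup210l was at 0.623 against 11.2 CPM, and the next lowest, Pom121, was at 40.1 against 111 CPM. The 2 higher genes were Nup98 (70.1 against 31.4 CPM) and Nup93 (170 against 77.9 CPM).

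Housekeeping lists held few genes beyond 2-fold, a count that depends on the scaling. Of 30 ribosomal protein genes 3 were higher and 0 lower (median 0.43; 14 higher with TMM scaling, median 0.95), of 13 mitochondrially encoded genes 1 was higher and 1 lower (0.26), and of 19 nuclear genes of the respiratory chain 2 were higher and 0 lower (0.26). Hypoxia and glycolysis genes had 10 higher and 1 lower of 17 compared (median 1.35), with Ldha at 802 against 128 CPM (6.28-fold, 6.03 to 6.55) and Slc2a1, the main glucose transporter, at 63.1 against 20.4 CPM. Of 21 cholesterol synthesis genes 5 were lower and 0 higher (median -0.27), against 1 lower and 2 higher with TMM scaling (median 0.23). Of 14 unfolded protein and ATF4 genes 3 were higher and 5 lower (median -0.21, 0.30 with TMM scaling). Of 12 immediate early genes 5 were higher and 5 lower (median 0.04). Atf3, a stress-induced factor in both of these lists, was at 687 against 27.1 CPM, while Egr1 was at 278 against 1089.

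Immune genes were higher for MHC class I and for some chemokines. Of 8 MHC class I pathway genes compared 7 were higher and 0 lower (median 1.70), with B2m at 1515 against 84.4 CPM (17.9-fold, 17.1 to 18.8) and H2-D1 at 1087 against 133 CPM, although H2 genes share sequence and their reads may be divided between copies. Of 12 inflammatory genes compared 7 were higher and 2 lower, and the median of 2.66 was 0.40 over all 19 listed and 0.63 with a limit of 1 CPM. Ccl2, which attracts monocytes, was at 746 against 4.92 CPM (151-fold, 124 to 186) and at 366 CPM at D0, while Ccl6 was at 291 against 0.348 CPM and at 0.354 CPM at D0. Of 13 interferon response genes 2 were higher and 5 lower (median -0.62), and 2 were lower with TMM scaling. The counts of 2 and 5 are near the shares of all genes compared, 17.8% higher and 33.9% lower. Bst2 was at 88.3 against 7.86 CPM and Isg15 at 1.84 against 7.51.

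Markers of remaining cell types were sparse in both libraries. Of 4 endothelial markers compared 2 were higher and 2 lower, and Cldn5 had 0 counts in the chemically induced library. Of 3 adipocyte markers compared 2 were higher, led by the fatty acid receptor Cd36 (107 against 0.0995 CPM), and of 2 cartilage and bone markers 1 was higher, Spp1 (814 against 23.0 CPM), and 1 lower. Skeletal muscle, keratinocyte and pluripotency lists had 1 gene compared each, which was lower in each case. Each of these genes was under 5 CPM in the chemically induced library, so its direction was fixed by the limit. The pluripotency factor Pou5f1 was at 0 counts in the chemically induced library and 1 count in NSC.

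The genes with the largest differences among those with 20 CPM or more in either library belonged to these same classes in part. The 12 highest were Prl2c2, Lgals3, Thbs2, Tnc, Thbs1, Postn, Ly6a, Cdh19, Aqp1, Clca3a2, Insc and Dcn. Prl2c2, which encodes proliferin, was at 4473 CPM against 14 counts (0.696 CPM), and at 4.51 CPM at D0, 805 CPM in the day 4 and 260.5 CPM in the day 8 GFP-negative cells; it has close copies in the genome among which reads may be divided. Lgals3, which encodes galectin 3, was at 2876 CPM against 3 counts (ratio 19272, 6594 to 93454). Aqp1, a water channel, was at 415 CPM against 0 counts, and Insc, an adaptor of asymmetric division, at 289 CPM against 0 counts. Insc and Cdh19 were low at D0 (5.71 and 4.63 CPM), whereas Thbs1 and Ly6a were at 3330 and 1942 CPM there, above their 1357 and 1005 CPM in the chemically induced library. Among the 12 lowest were Vtn, Rtn1, Sez6, Dcx, Nsg2, Gad1, Sp9 and Igfbpl1. Rtn1, a reticulon of neurons, was at 0.901 against 986 CPM (1094-fold lower, 747 to 1676).

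Differences from NSC were set beside the course of the same genes under VCR in a pair that shares no library with the comparison above, the day 4 GFP-positive cells and D0. The day 4 library was close to that of day 8 (Pearson's r 0.99), so the 2 pairs are not independent. In that pair 49.8% of 11378 genes lay beyond 2-fold, 38.5% higher at day 4 and 11.3% lower. Of the 2255 genes higher than NSC that were measured in both pairs, 985 (43.7%) were also higher at day 4 than at D0, and these were 22.7% of the 4343 genes higher at day 4. A further 262 (11.6%) were lower at day 4. The shares among all 11059 genes in both pairs were 39.3% and 9.93%, so both directions were more frequent than among all genes. Among the 4382 genes lower than NSC, 2664 were measured in both pairs, the others being under 5 CPM at day 4 and at D0. Of the 2664, 1056 (39.6%) were higher at day 4 than at D0 and 317 (11.9%) were lower, against 39.3% and 9.93% of all genes. With median ratio scaling 30.0% of the genes higher than NSC and 21.8% of those lower were higher at day 4, against 22.2% of all genes, and 20.8% and 20.6% were lower, against 19.4%. Cdh19, Sox10, Dhh and Fgf5 are examples of genes higher than NSC and higher at day 4 than at D0, Col1a1 and Thy1 (9.77 against 1.94 CPM in NSC, 149 at D0) of genes higher than NSC and lower at day 4, and Gad2 and Olig1 of genes lower than NSC and higher at day 4.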

How the data were processed

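The deposited table holds estimated counts for 30332 gene symbols in 9 RNA-seq libraries, 1 per group; the values are fractional and their totals differ, so they were read as estimated counts although the deposited table is named for TPM. Per the submitters' processing notes kallisto 0.43.1 was used, with the builds GRCm38 and mm10. The transcript annotation is not given in the sources used here, nor is the use of strand. Samples were grouped by title. ATAC-seq was not analysed here (4 samples).

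CPM was computed from column totals in Python 3.11.15 with numpy 2.4.6, pandas 2.3.3 and scipy 1.17.1. Transcript length is not corrected for in CPM, and levels were compared within a gene only. Differences are of log2(CPM + 1), chemically induced minus NSC, a scale that understates differences of low genes, and the mark was 2-fold among genes that reached 5 CPM on either side. A fold is the plain ratio of both CPM values, and its interval is an exact conditional binomial one on the rounded counts; a count of 0 was set at a floor of 3 counts in its library. TMM factors came from edgeR 4.0.16 in R 4.3.3, and median ratio factors from 8290 genes. Calls and intervals were tested on simulated Poisson counts. These hold no spread between cultures, so the test checks the computation and not how far calls between 2 single libraries would repeat.

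The comparison, the 53 gene lists (841 genes, of which 4 are not in the table) and the rules were chosen with earlier results of these data known. Named genes were the markers of the compared cell types, 8 study factors, the 12 highest and 12 lowest differences at 20 CPM or more without predicted genes, up to 5 listed members each way, and further members where their list is described. Some genes these rules name are not reported here. Gene positions and promoters are from RefSeq on GRCm38.p6; 26237 symbols of the table matched. Figures were drawn with matplotlib 3.10.9.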

Additional observations from a re-analysis of the deposited data

How the results depend on the processing

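The count of genes higher in the chemically induced library stayed within 1.5 times of 2297 under every alternative, between 1963 with a pseudocount of 5 CPM and 3437 with TMM scaling. The count of genes lower stayed within 1.5 times of 4382 except with TMM scaling, where it was 2652; it was 3194 with quantile normalization, 2930 with a floor of 20 CPM and 6553 with a floor of 1 CPM. With median ratio scaling over this pair of libraries, an alternative chosen after seeing the data, 2673 were higher and 3899 lower, with the median gene at -0.18. Of 35 list medians beyond 2-fold, 25 kept their side under all alternatives. The 10 others were the lists of ErbB, FGF, Hox, midbrain and hindbrain, neural crest, inflammatory, autonomic and sensory, adipocyte, keratinocyte and pluripotency genes. Under the scalings alone, the ErbB list (0.0205 with TMM, where the 5 CPM limit was applied again) and the 1 compared pluripotency marker lost it. The ErbB median also turned to 0.94 with a floor of 20 CPM. The FGF median turned to -0.17 with all 16 members in the table and to -0.35 with no floor, and the keratinocyte median to 0.13 with both. The midbrain and hindbrain (0.36), Hox (0.88), inflammatory (0.40) and adipocyte (0.48) medians fell within 2-fold with both, and the autonomic and sensory median was 0.10 and 0.27; these alternatives add members near 0 counts. Of 42 named genes, 41 were beyond 2-fold and 38 of these kept their side under all alternatives tried; Sox2 and Nes were among the exceptions, and none changed direction. Of 407 other listed genes beyond 2-fold, 44 fell within it with TMM scaling and 0 changed direction.

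No paired analysis was possible because each group is 1 library and the labels give no replicate numbers. With 1 library a side there was no replicate to leave out, the spread between separate cultures is unknown, and levels of a few counts set only wide bounds on a ratio.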

Other observations

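Some gene families outside the lists above stood to one side. They were picked by symbol after their values had been seen, so their counts are a description. All 8 annexins compared, which bind membranes in a calcium-dependent way, were higher in the chemically induced library, with a median difference of 4.12, beside 17.8% of all genes compared. Anxa1 and Anxa2 had the largest differences. Of 12 lysosomal cathepsins compared 8 were higher and 2 lower, with a median of 1.78; the 2 lower genes were Ctss and Ctse, of which Ctss is known from microglia, whose markers were also higher in NSC. Their part in this was not tested.

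Of 20 hnRNP genes, which package and splice nascent RNA, 13 (65.0%) were lower and 0 higher, beside 33.9% and 17.8% of all genes. Their median was -1.26 (-0.74 with TMM scaling). Of 334 zinc finger genes with a Zfp symbol 150 (44.9%) were lower and 17 (5.09%) higher, with a median of -0.86 (-0.36 with TMM scaling), beside 33.9% and 17.8% of all genes. Of 32 Gpr receptor genes 21 (65.6%) were lower, led by Gpr17, and 4 (12.5%) higher (median -2.19), beside the same 33.9% and 17.8%. Mitochondrial ribosomal protein genes lay near 0, with 4 of 78 higher and 4 lower (median -0.05, 0.45 with TMM scaling).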
